A study of Mus musculus with 26 samples.

Results

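The aorta of angiotensin II-infused mice without smooth muscle Sphk1 was set against the aorta of sham mice with intact Sphk1, to describe which genes and pathways of the hypertensive vessel still differed when this kinase was deleted. The comparison took the 5 aortic RNA libraries labelled as hypertensive smooth muscle knockouts and the 4 labelled as normotensive floxed mice, which are 9 of the 26 libraries of the series. KO AngII mice were Sphk1f/f Tagln-cre+ and received angiotensin II (AngII) at 490 ng/kg/min from an implanted minipump for 14 days. WT AngII mice (4 libraries) were Sphk1f/f without Cre and had the same infusion. WT sham mice were Sphk1f/f without Cre and had no AngII. All mice were on C57BL6J and carried the floxed alleles, and the infused mice were males of 12 to 14 weeks at the start; the labels do not give the age and sex of the sham mice separately. Cre was driven by the promoter of Tagln (SM22α), and the labels do not say which exons were floxed. A Cre-positive sham group was not analysed here, so genotype and infusion differ together between KO AngII and WT sham and cannot be told apart in that comparison.

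Sphk1 encodes sphingosine kinase 1, which adds a phosphate to sphingosine. The product, sphingosine-1-phosphate, is a signalling lipid that cells export and sense through G protein-coupled receptors of the S1pr family. AngII raises blood pressure through the type 1 receptor on smooth muscle and other cells. In the arterial wall a sustained infusion is known for medial growth, collagen and elastin deposition in media and adventitia, entry of monocytes, and a shift of smooth muscle away from contractile gene expression.

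Values are given as CPM, the reads of a gene scaled to a common library total with TMM factors, and are not divided by gene length, so they compare libraries and not genes. All 13 aortic libraries entered one edgeR quasi-likelihood fit over 16863 genes. A gene is said to have risen, fallen or been called where its Benjamini-Hochberg adjusted p over all genes was below 0.05, and fold changes are log2 values of KO AngII over WT sham ± SE unless another comparison is named. Reads assigned to genes numbered between 23487946 and 32251097 per library. The 1st principal component (45.7% of variance) separated all WT sham libraries from all AngII libraries. WT AngII replicate 4 lay nearest to sham on that axis and far from every other library on the 2nd (12.6%). Defining smooth muscle markers such as Acta2 and Myh11 were abundant in every library. Summed over 16 contractile markers, the level was 23217 to 39104 CPM in KO AngII libraries, 22460 to 42186 CPM in WT AngII libraries and 38471 to 47811 CPM in WT sham libraries. Skeletal muscle markers summed to 126.8 CPM in KO AngII replicate 2 and to at most 18.2 CPM in any other library. In whole aorta, fewer cells of a type and less RNA per cell cannot be told apart, which holds for every group of genes described here.

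Sphk1 itself had 2.64, 1.85, 1.72, 3.29 and 3.03 CPM in the KO AngII libraries and 24.2, 22.9, 16.1 and 11.6 CPM in the WT AngII libraries, against 4.31, 5.08, 6.03 and 3.04 CPM in the WT sham libraries. Every WT AngII library was above every library of the other groups, while the highest KO AngII library overlapped with the lowest WT sham library at about 3 CPM. The level in KO AngII was 54.3% of the WT sham mean and 13.4% of the WT AngII mean. The fold change against WT sham was -0.88 ± 0.266 (95% interval -1.45 to -0.31, edgeR adjusted p = 0.022), with a two-sided exact permutation p of 0.0317 where the smallest possible is 0.00794. This call rested on single libraries, because the edgeR adjusted p was 0.0529 without KO AngII replicate 2, 0.0577 without WT sham replicate 2 and 0.0737 without WT sham replicate 3. Against WT AngII the fold change was -2.90 (95% interval -3.46 to -2.33), with an edgeR adjusted p = 0.00046. Between 49 and 101 Sphk1 reads remained in each KO AngII library. Where along the gene these reads fall, and from which cells they come, was not tested.

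**Figure D1:**
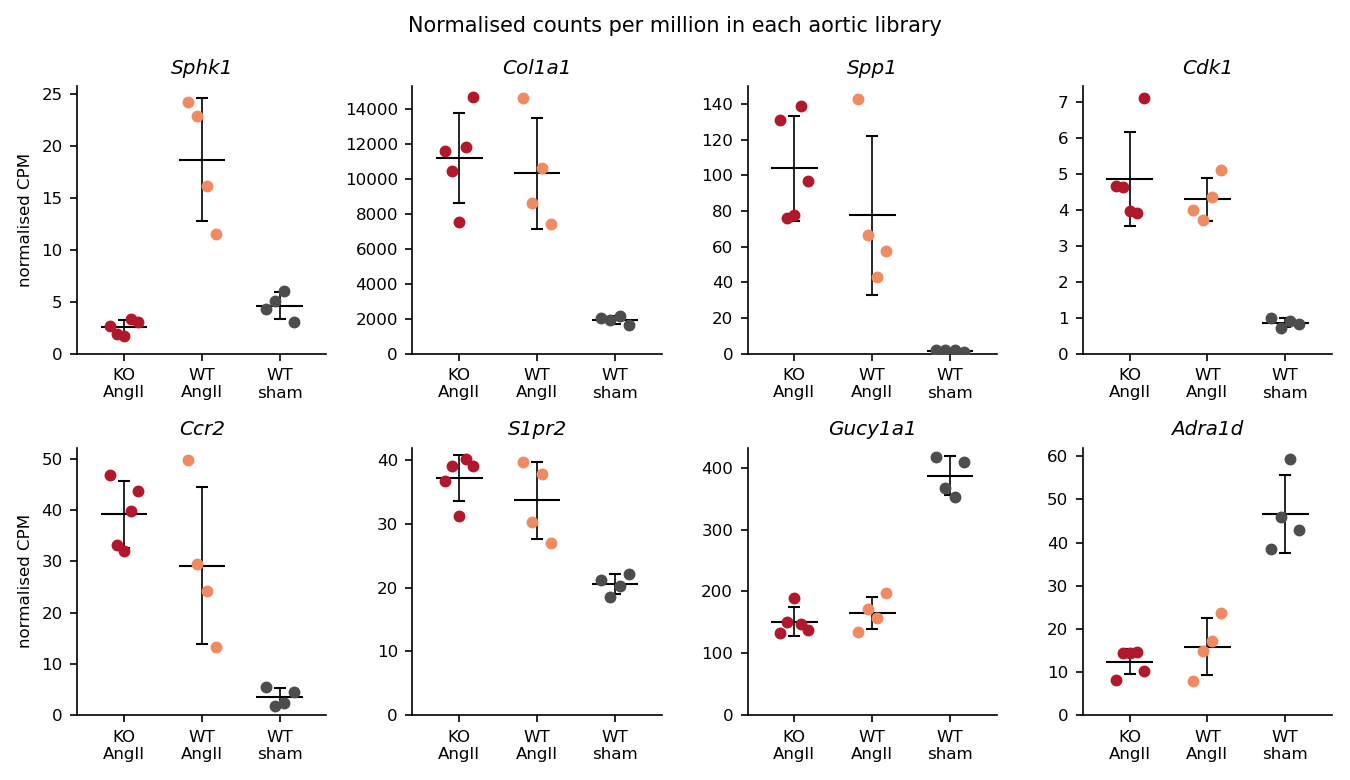
Normalised CPM (y axis, linear from 0) of 8 genes in each aortic library, grouped as KO AngII, WT AngII and WT sham (x axis); each point is 1 library, the line is the mean and the bars are ± 1 SD. Sphk1 is high in the 4 WT AngII libraries only, whereas Col1a1, Spp1, Cdk1, Ccr2 and S1pr2 are higher, and Gucy1a1 and Adra1d lower, in both AngII groups than in WT sham.

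Without smooth muscle Sphk1, the infused aorta still differed broadly from sham. In KO AngII, 5197 of 16863 genes were called (30.8%), 2796 higher (16.6%) and 2401 lower (14.2%). Changes of at least 2-fold were mostly increases, with 1095 genes higher (6.49%) and 384 lower (2.28%). Scaling by library size alone gave 2192 higher and 4075 lower genes, with the median of all genes at -0.105, so the split between directions depended on the scaling; under TMM the median was -0.008. WT AngII, compared with the same 4 sham libraries, had 2475 higher genes (14.7%) and 1826 lower ones (10.8%). Of the 2475 genes that rose in WT AngII, 2183 also rose in KO AngII, which is 88.2% of the WT AngII list and 78.1% of the KO AngII list. Of the 1826 genes that fell in WT AngII, 1522 also fell in KO AngII, or 83.4% of the WT AngII list and 63.4% of the KO AngII list. Among genes that rose at least 2-fold in WT AngII the share was 92.4% (839 of 908, a class that holds 5.38% of all genes), and among those that fell at least 2-fold it was 78.6% (286 of 364, 2.16% of all genes). Genes called in a single AngII group mostly moved the same way in the other. Of those called in WT AngII only, 290 of 291 higher and 303 of 304 lower genes kept their direction in KO AngII. Of those called in KO AngII only, 610 of 613 higher and 872 of 878 lower genes kept it in WT AngII. A missing call was therefore not itself a difference between the AngII groups. For 5455 genes (32.3%) the 5 KO AngII and 4 WT sham libraries did not overlap. Because both comparisons use the same sham libraries, these shares and shared directions carry that common part. Sphk1 was the 1 gene called in opposite directions.

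**Figure D2:**
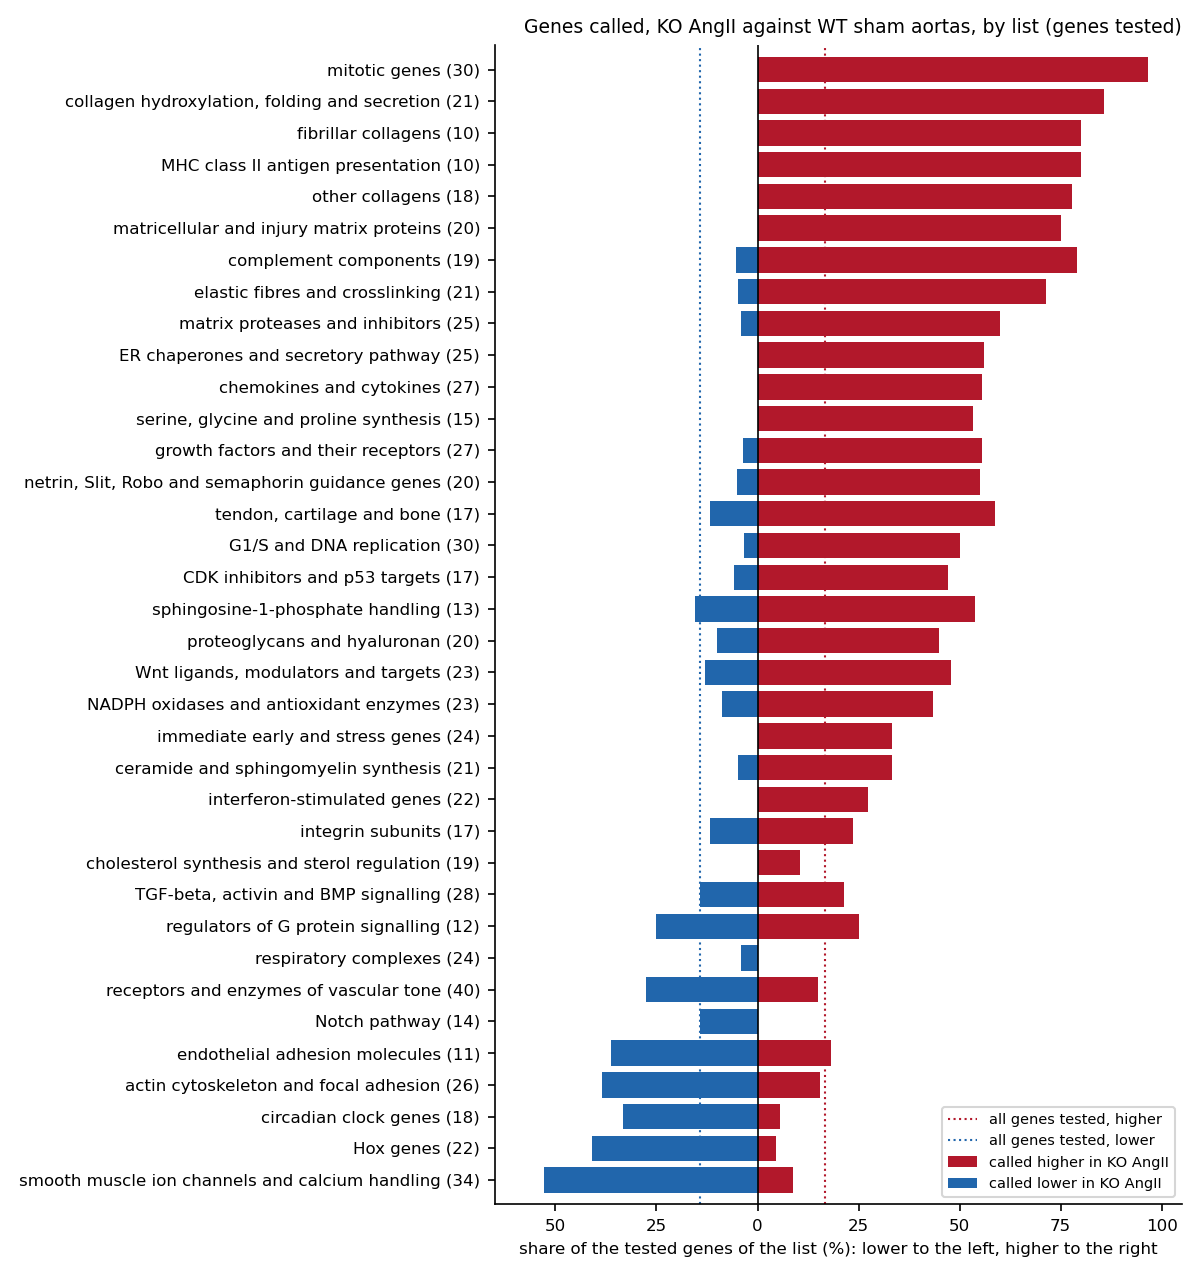
Share of the tested genes of each of 36 gene groups (y axis, number tested in brackets) that were called lower (blue, to the left) or higher (red, to the right) in KO AngII than in WT sham libraries (x axis, percent); dotted lines mark the share over all genes, 14.2% lower and 16.6% higher. Lists of cell type markers are not plotted. Of the lists plotted, mitotic genes, collagen-processing genes, fibrillar collagens and MHC class II genes reach the largest shares to the right, and smooth muscle ion channels and Hox genes the largest to the left.

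Genes of mitosis rose together. Of 30 tested members of a list of spindle, kinetochore and chromosome genes, 29 rose in KO AngII and none fell, and the list median was 2.40 against -0.01 over all genes. In WT AngII the same 29 were called, with a list median of 2.31. Cdk1, the kinase that drives entry into mitosis, had 4.67, 4.65, 3.98, 3.91 and 7.14 CPM in the KO AngII libraries and 4.003, 3.71, 4.38 and 5.104 CPM in the WT AngII libraries, against 0.99, 0.7, 0.902 and 0.822 CPM in the WT sham libraries. KO AngII replicate 5 was the highest, and no KO AngII library came near the sham range. The fold change of Cdk1 was 2.50 ± 0.213 (edgeR adjusted p = 2.96e-06) and 2.32 without KO AngII replicate 5.

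Top2a, the topoisomerase that untangles chromosomes before division, had 15.8, 16.7, 12.2, 15.8 and 22.3 CPM in the KO AngII libraries, against 3, 1.69, 2.996 and 2.04 CPM in the WT sham libraries. Mki67, the proliferation marker that coats mitotic chromosomes, had 16.1, 18.4, 13.5, 16.7 and 24.3 CPM in the KO AngII libraries, against 4.14, 2.73, 2.74 and 2.43 CPM in the WT sham libraries. KO AngII and WT sham libraries did not overlap for either gene, with fold changes of 2.76 ± 0.241 for Top2a (edgeR adjusted p = 4.93e-06) and 2.55 ± 0.242 for Mki67 (edgeR adjusted p = 9.06e-06). Kif11, the kinesin that separates spindle poles, changed by 2.44 ± 0.265 (edgeR adjusted p = 1.58e-05), Cenpe, a kinetochore kinesin, by 2.48 ± 0.241, and Iqgap3, a scaffold of dividing cells, by 2.96 ± 0.273. The member that was not called was Anln, a scaffold of the cleavage furrow, with 99.2, 106, 125, 109 and 104 CPM in the KO AngII libraries, against 108, 103, 104 and 85.8 CPM in the WT sham libraries. Its groups overlapped, at a fold change of 0.12 ± 0.18 (edgeR adjusted p = 0.664).

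These genes share promoter letters that many cell-cycle genes carry. The element TTTGAA (the core of the cell cycle homology region, known from human and mouse promoters that peak in mitosis) and the NF-Y element CCAAT were searched on both strands in RefSeq windows of 250 bases before to 50 bases after each gene start on GRCm38.p6, a build other than the GRCm39 of the counts. Of 25 mitotic genes with a window, 20 held TTTGAA (80%), 21 held CCAAT (84%) and 18 held both (72%), against 17.9%, 37.4% and 6.95% of 32851 windows over all genes. By comparison, 3 of 23 genes of the G1/S and replication list with a window held TTTGAA (13%) and 17 held CCAAT (73.9%), and CCAAT was also present in 8 of 12 contractile smooth muscle markers with a window (66.7%), so its share was high outside the mitotic list as well. A stretch of 150 bases is shown for 4 genes whose values are given above, read 5′ to 3′ along the gene up to the base before its start, with TTTGAA and CCAAT, or on the other strand TTCAAA and ATTGG, in capitals. The intervals are chr10:69352913-69353062 on the minus strand for Cdk1, chr11:99024190-99024339 on the minus strand for Top2a, chr7:135716380-135716529 on the minus strand for Mki67 and chr19:37376232-37376381 on the plus strand for Kif11.
Cdk1: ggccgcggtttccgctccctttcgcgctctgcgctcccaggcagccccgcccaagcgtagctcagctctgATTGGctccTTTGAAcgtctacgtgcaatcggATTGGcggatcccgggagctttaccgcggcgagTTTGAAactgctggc
Top2a: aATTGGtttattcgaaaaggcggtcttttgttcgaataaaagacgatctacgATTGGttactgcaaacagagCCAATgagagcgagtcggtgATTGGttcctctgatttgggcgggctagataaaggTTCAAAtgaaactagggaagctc
Mki67: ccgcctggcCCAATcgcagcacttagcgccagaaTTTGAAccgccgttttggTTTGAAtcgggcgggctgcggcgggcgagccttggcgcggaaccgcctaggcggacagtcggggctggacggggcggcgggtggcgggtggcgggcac
Kif11: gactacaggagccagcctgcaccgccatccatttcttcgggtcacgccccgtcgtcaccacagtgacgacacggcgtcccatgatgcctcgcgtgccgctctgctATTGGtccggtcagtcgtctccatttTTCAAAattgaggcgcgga
Each of the 4 stretches holds both elements, and a match says only that the letters are present, not that a factor bound there.

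Entry into S phase moved less uniformly. Of 30 genes of G1/S transition and DNA replication, 15 rose and 1 fell in KO AngII, with a list median of 0.40. Ccne1, the cyclin that activates Cdk2 at the G1/S boundary, had 1.56, 1.59, 1.36, 1.63 and 1.27 CPM in the KO AngII libraries, against 0.379, 0.184, 0.289 and 0.286 CPM in the WT sham libraries. The KO AngII libraries were all more than 3 times the highest sham library, and the fold change was 2.35 ± 0.25 (edgeR adjusted p = 1.34e-05). Uhrf1, which keeps DNA methylation through replication, rose by 1.96 ± 0.206, Rrm2, a subunit of ribonucleotide reductase, by 1.44 ± 0.14, and the transcription factor gene E2f1 by 1.15 ± 0.147. The gene that fell was Prim1, the small primase subunit (-0.63 ± 0.114, edgeR adjusted p = 0.000774).

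A list of CDK inhibitors and p53 targets was divided. Of 17 members, 8 rose, 1 fell and 8 were not called, a called share of 52.9% against 30.8% over all genes. Cdkn1a, which encodes the CDK inhibitor p21, had 124, 121, 108, 124 and 108 CPM in the KO AngII libraries and 107, 106, 92.99 and 95.9 CPM in the WT AngII libraries, against 41.9, 43.8, 42.02 and 32.6 CPM in the WT sham libraries. All 9 AngII libraries exceeded all 4 sham libraries, and its fold change of 1.54 ± 0.0905 had the edgeR adjusted p = 2.06e-07. Ccng1, Zmat3 and Sesn2, which are targets of p53, rose by 0.62, 0.70 and 0.72. Sesn1, another sestrin, fell by 0.29 on the log2 scale (edgeR adjusted p = 0.00441).

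Among the largest single increases, most were genes of the extracellular matrix. Named by size of change among genes without overlap between groups, the 10 were Col11a1, Fbn2, Thbs4, Lgr5, Tnn, Cemip, Spp1, Pkp1, Cthrc1 and Lrrc15, with fold changes between 7.73 and 5.67. Spp1, encoding the secreted phosphoprotein osteopontin, had 131, 75.95, 77.7, 139 and 96.6 CPM in the KO AngII libraries and 143, 66.3, 42.9 and 57.8 CPM in the WT AngII libraries, against 2.21, 2.1, 1.73 and 0.572 CPM in the WT sham libraries. Each AngII library was far above sham, and the fold change in KO AngII was 5.96 ± 0.494 (edgeR adjusted p = 1.02e-05). Cthrc1, a secreted protein of injured arteries and active fibroblasts, had 41.8, 37.5, 42.7, 57.6 and 102 CPM in the KO AngII libraries, against 1.28, 1.58, 0.686 and 0.643 CPM in the WT sham libraries, a fold change of 5.74 ± 0.686 (edgeR adjusted p = 0.000126). KO AngII replicate 5 was again the highest, and the values of the other 4 were close to each other.

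Several of these increases were uneven between libraries. Col11a1, a minor fibrillar collagen typical of cartilage, had 32.1, 14.9, 26.4, 32.4 and 153 CPM in the KO AngII libraries and 146, 21.2, 49.7 and 5.03 CPM in the WT AngII libraries, against 0.175, 0.368, 0.108 and 0.322 CPM in the WT sham libraries. Fbn2, a fibrillin of developing elastic tissue, had 4.24, 1.29, 4.69, 4.303 and 20.4 CPM in KO AngII and 24.1, 1.58, 10.2 and 0 CPM in WT AngII, against 0, 0.111, 0 and 0.0357 CPM in WT sham. Thbs4, a matricellular thrombospondin of tendon and muscle, had 46.6, 36.8, 56.5, 30.8 and 302 CPM in KO AngII and 254, 38.2, 224 and 0.422 CPM in WT AngII, against 2.42, 0.0737, 0.217 and 0.25 CPM in WT sham. For all of them KO AngII replicate 5 and WT AngII replicate 1 were among the highest and WT AngII replicate 4 was the lowest infused library. The fold changes were 7.73 ± 1.47 for Col11a1 (edgeR adjusted p = 0.00239), 7.50 ± 2 for Fbn2 (edgeR adjusted p = 0.0153) and 6.86 ± 1.7 for Thbs4 (edgeR adjusted p = 0.0104), and 6.76, 6.56 and 5.71 without KO AngII replicate 5. With limma voom and library quality weights the calls ended, at adjusted p of 0.101, 0.079 and 0.233. Tnn, a tenascin of bone and tendon, and Lgr5, an R-spondin receptor, changed by 6.25 ± 1.7 and 6.38 ± 1.78, and their calls also ended in limma voom, at adjusted p of 0.155 and 0.0747. Lgr5 lost its edgeR call without WT sham replicate 1, 2 or 3, with adjusted p up to 0.0551.

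Cemip, which takes part in hyaluronan breakdown, had 9.21, 4.09, 8.44, 5.28 and 8.75 CPM in the KO AngII libraries, against 0.146, 0.0368, 0.108 and 0.0715 CPM in the WT sham libraries. Its libraries stood well apart, at a fold change of 6.19 ± 0.464 (edgeR adjusted p = 1.91e-06). Lrrc15, a membrane protein of activated fibroblasts, changed by 5.67 ± 0.862, and Pkp1, a desmosomal plakophilin, by 5.74 ± 0.561, and both were within a few reads of 0 in the sham libraries.

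**Figure D3:**
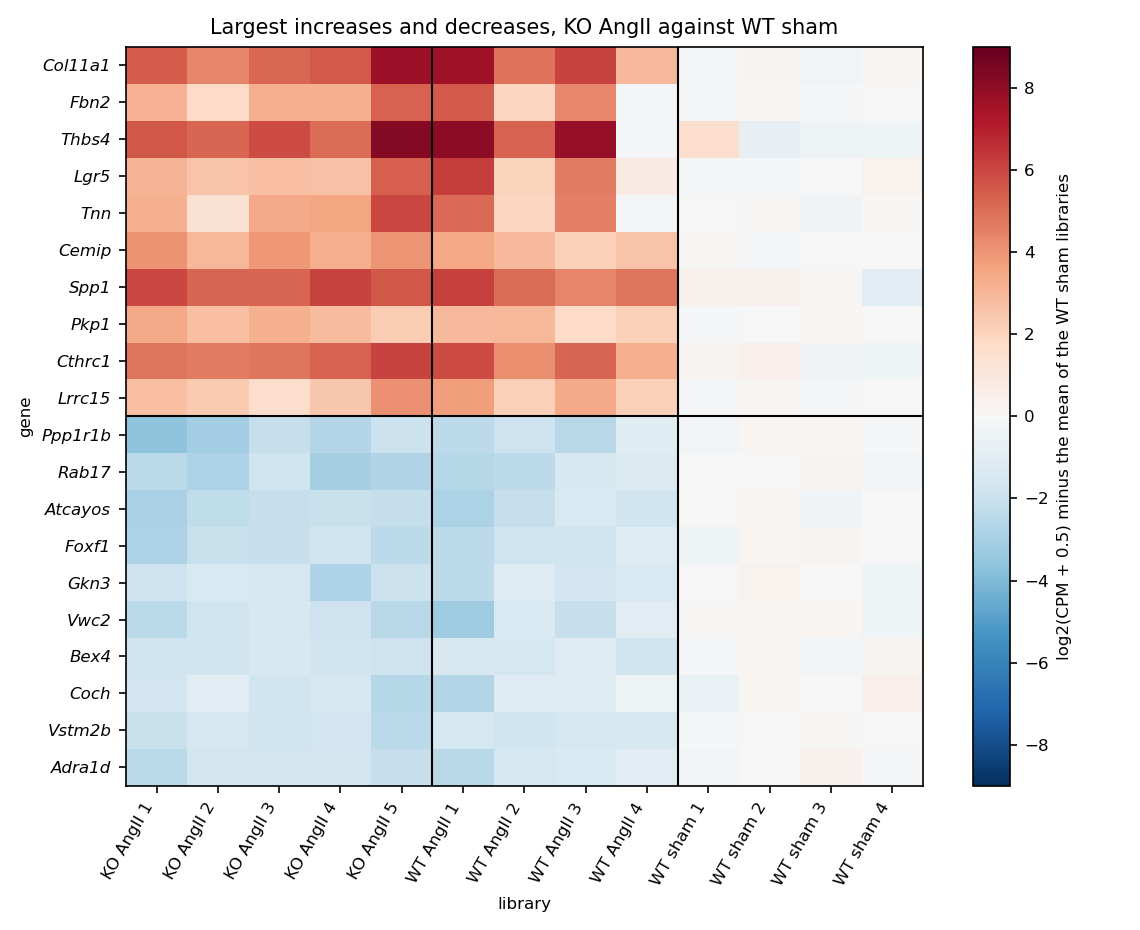
Heat map of log2(CPM + 0.5) minus the mean of the WT sham libraries for the 10 largest increases and 10 largest decreases (y axis) in each aortic library (x axis: KO AngII, WT AngII, WT sham); red is above and blue below the sham mean. The increases of Col11a1, Fbn2, Thbs4, Lgr5 and Tnn are strongest in KO AngII 5 and WT AngII 1 and weakest among infused libraries in WT AngII 4, while the decreases are more even.

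The 10 largest decreases were Ppp1r1b, Rab17, Atcayos, Foxf1, Gkn3, Vwc2, Bex4, Coch, Vstm2b and Adra1d, from -3.17 to -1.91. Ppp1r1b, encoding the phosphatase inhibitor DARPP-32, had 0.0865, 0.341, 1.197, 0.652 and 1.42 CPM in the KO AngII libraries, against 5.71, 7.699, 7.51 and 6.22 CPM in the WT sham libraries. The highest KO AngII library was far below the lowest sham library, with a fold change of -3.17 ± 0.507 (edgeR adjusted p = 0.000479). Foxf1, a transcription factor of visceral and lung mesenchyme, had 3.16, 5.83, 5.47, 6.75 and 4.53 CPM in the KO AngII libraries, against 18.7, 28.1, 30.1 and 23.98 CPM in the WT sham libraries. It fell without overlap by 2.28 on the log2 scale (edgeR adjusted p = 2.48e-05). Rab17, a small GTPase of vesicle traffic, changed by -3.01 ± 0.395. Gkn3, a gastrokine also found in arterial endothelium of mice, changed by -2.02 ± 0.316. Atcayos is an antisense transcript, and the strand setting of the counting is not given, so its change of -2.45 ± 0.275 cannot be told apart from reads of the gene opposite to it.

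Collagen genes rose broadly. In a list of 10 tested fibrillar collagens, 8 rose in KO AngII and none fell, with a median of 1.89. Col1a1, which encodes the α1 chain of type I collagen, had 11584, 10433, 7498, 11792 and 14636 CPM in the KO AngII libraries and 14585, 8589, 10598 and 7395 CPM in the WT AngII libraries, against 2046, 1899.7, 2119 and 1601 CPM in the WT sham libraries. The lowest infused library was more than 3 times the highest sham library, and the fold change was 2.55 ± 0.225 (edgeR adjusted p = 3.78e-06). Col3a1 and Col1a2, its usual partners in arterial fibrils, rose by 2.45 ± 0.248 and 1.97 ± 0.197. Col5a2 and Col5a1, which set fibril diameter, rose by 1.81 ± 0.123 and 1.24 ± 0.125. Col2a1, the cartilage collagen, had 15.4, 4.88, 6.57, 4.11 and 6.41 CPM in the KO AngII libraries, against 0.641, 0.442, 0.253 and 0.179 CPM in the WT sham libraries. KO AngII replicate 1 was the highest, no library overlapped with sham, and the fold change was 4.25 ± 0.526 (edgeR adjusted p = 7.51e-05). Col11a2 and Col27a1 were not called, at 0.52 ± 0.196 (edgeR adjusted p = 0.0582) and 0.13 ± 0.163 (edgeR adjusted p = 0.568).

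Of 18 other collagens, 14 rose and none fell (median 0.98). Col8a1, a short-chain collagen that smooth muscle cells make on injury, averaged 322 ± 126 CPM in KO AngII and 17.4 ± 7.27 CPM in WT sham libraries (mean ± SD over 5 and 4 libraries, here and for other averages), a fold change of 4.21 ± 0.49 (edgeR adjusted p = 9.35e-05). Col16a1, Col6a3, Col14a1 and Col15a1 rose by 1.66, 1.28, 1.21 and 0.95. In the list of matricellular proteins, 15 of 20 rose and none fell (median 1.32). Thbs1, a thrombospondin that can activate latent TGF-beta, averaged 412 ± 57.5 CPM in KO AngII and 58.8 ± 12.2 CPM in WT sham libraries, a fold change of 2.81 ± 0.238 (edgeR adjusted p = 5.26e-06). Ccn4, Sparc and Tnc rose by 2.10 ± 0.156, 1.83 ± 0.141 and 1.40 ± 0.11. Sparc encodes a collagen-binding protein and Tnc the tenascin of remodelling tissue. Ccn1, an immediate-early matricellular gene, had 412, 319, 309.8, 294 and 162 CPM in KO AngII and 315, 531, 594 and 1426 CPM in WT AngII, against 268, 496, 321 and 183 CPM in WT sham, and was not called (edgeR adjusted p = 0.901). Its spread was wide in all groups, with WT AngII replicate 4 the highest.

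Genes of collagen processing also rose. Of 21 genes for hydroxylation, folding and secretion of collagen, 18 rose and none fell (median 0.46). P4ha3, a prolyl 4-hydroxylase subunit, had 12.7, 9.31, 7.02, 14.4 and 16.5 CPM in the KO AngII libraries, against 1.08, 0.589, 0.361 and 0.465 CPM in the WT sham libraries, a fold change of 4.22 ± 0.406 (edgeR adjusted p = 1.26e-05). No library overlapped, and the sham libraries were all near 1 CPM or lower. Plod2, a lysyl hydroxylase, P4ha1 and Bmp1, the protease that trims procollagen ends, rose by 1.11 ± 0.124, 0.94 ± 0.0893 and 0.94 ± 0.118. Of 25 chaperones and secretory pathway genes of the endoplasmic reticulum 14 rose and none fell, by smaller steps (median 0.33), among them Kdelr3 (0.81 ± 0.133), Pdia5 (0.66 ± 0.0985), Dnajc3 (0.48 ± 0.0721) and Hsp90b1 (0.43 ± 0.0837). Of 15 genes in a list for synthesis of serine, glycine and proline, 8 rose and none fell. These are amino acids in which collagen is rich or from which its residues derive. The list also holds Asns, asparagine synthetase, which makes another amino acid. Asns, Psat1 of the serine pathway, and Pycr1 and Aldh18a1 of the proline pathway rose by 1.44, 1.31, 0.93 and 0.83.

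For elastic fibres and their crosslinking enzymes, 15 of 21 genes rose and Ltbp4 alone fell (median 0.72). Lox, the lysyl oxidase that crosslinks collagen and elastin, had 1402, 1204, 1219.8, 1478 and 1413 CPM in the KO AngII libraries and 1159, 1147, 1036 and 1609.5 CPM in the WT AngII libraries, against 379.9, 353, 376 and 296 CPM in the WT sham libraries. Its lowest KO AngII library was more than 3 times the highest sham library, at 1.93 ± 0.135 (edgeR adjusted p = 1.24e-06). Eln, which encodes tropoelastin, averaged 11611 ± 871 CPM in KO AngII and 4473 ± 1032 CPM in WT sham libraries, a fold change of 1.38 ± 0.193 (edgeR adjusted p = 0.000113). Ltbp2, a fibrillin-associated protein, rose by 2.04 ± 0.139, Loxl2 by 1.49 ± 0.148 and Fbn1, the main fibrillin, by 1.23 ± 0.106. Ltbp4, which guides elastic fibre assembly, was the member that fell, with 847, 1015, 977, 1011 and 930.1 CPM in the KO AngII libraries, against 1609, 1636, 1598 and 1653 CPM in the WT sham libraries. Its groups did not overlap, with a fold change of -0.76 ± 0.0884 (edgeR adjusted p = 2.64e-05).

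Proteoglycans were more divided, with 9 of 20 higher and 2 lower (median 0.72). Lum and Bgn, leucine-rich proteoglycans that bind collagen, rose by 2.03 ± 0.38 and 0.70 ± 0.134. Acan, the aggregating proteoglycan of cartilage, rose by 1.39 ± 0.163, and Cd44, the hyaluronan receptor, by 0.99 ± 0.109. Ogn fell by 0.65 (edgeR adjusted p = 0.00214) and Ncan by 1.11 (edgeR adjusted p = 0.029) on the log2 scale. The call of Ncan ended in 6 fits with a library left out, without KO AngII replicate 1, 2 or 5 or WT sham replicate 2, 3 or 4, with adjusted p up to 0.0746.

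Of 25 matrix proteases and their inhibitors, 15 rose and 1 fell (median 0.85). Timp1, an inhibitor of matrix metalloproteinases, averaged 93.5 ± 22.6 CPM in KO AngII and 14.4 ± 3.58 CPM in WT sham libraries, a fold change of 2.70 ± 0.258 (edgeR adjusted p = 1.82e-05). Plau, the urokinase gene, Adamts2, a procollagen N-proteinase, and Timp2 rose by 1.68 ± 0.21, 1.28 ± 0.123 and 0.85 ± 0.117. Mmp9, a gelatinase of myeloid cells, fell by 1.28 (edgeR adjusted p = 0.0012), with 2.85, 1.67, 3.04, 2.22 and 2.03 CPM in the KO AngII libraries, against 5.07, 4.199, 8.23 and 5.505 CPM in the WT sham libraries. Mmp13, a collagenase, had 0.605, 2.46, 3.56, 17.8 and 11.9 CPM in KO AngII and 2.54, 1.397, 1.16 and 1.09 CPM in WT AngII, against 1.398, 0.589, 0.614 and 0.393 CPM in WT sham. KO AngII replicates 4 and 5 were far above the rest and replicate 1 lay inside the sham range. Its fold change of 3.25 ± 0.857 (edgeR adjusted p = 0.0136) was not called by limma voom (adjusted p = 0.172).

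Among 17 genes of tendon, cartilage and bone, 10 rose and 2 fell (median 0.91). Chad, the cartilage protein chondroadherin, had 2.59, 2.31, 4.33, 1.99 and 26.5 CPM in KO AngII and 11.9, 9.15, 9.15 and 6.93 CPM in WT AngII, against 0.233, 0.184, 0.18 and 0.107 CPM in WT sham. Tnmd, the tendon protein tenomodulin, had 13.6, 14.99, 19.3, 15.5 and 77.6 CPM in KO AngII and 111, 18.1, 44.1 and 7.53 CPM in WT AngII, against 1.08, 0.995, 1.08 and 1.29 CPM in WT sham. KO AngII replicate 5 was far above the other 4 KO AngII libraries for both genes, and no infused library overlapped with sham. Fold changes were 5.36 ± 1.05 (edgeR adjusted p = 0.00261) and 4.66 ± 0.993 (edgeR adjusted p = 0.00463), and 3.95 and 3.83 without that library. Without it, Chad was also called lower in KO AngII than in WT AngII (-1.72, edgeR adjusted p = 0.047). Cilp, a cartilage and fibroblast matrix protein, rose by 2.39 ± 0.31, Runx2, the osteoblast transcription factor, by 1.47 ± 0.229, and Enpp1, which makes the mineralisation inhibitor pyrophosphate, by 0.91 ± 0.122. The bone genes Sp7 and Ibsp fell by 2.13 (edgeR adjusted p = 0.00101) and 0.88 (edgeR adjusted p = 0.043), both from levels near or under 1 CPM. Ibsp lost its call in 7 fits with a library left out (KO AngII replicate 1, 2, 4 or 5, WT AngII replicate 2, WT sham replicate 2 or 4), with adjusted p up to 0.197.

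Fibroblast markers moved with these matrix groups. Of 12 adventitial fibroblast markers, 8 rose and none fell, and their summed level was 7120 to 10521 CPM in KO AngII libraries, 6658 to 12705 CPM in WT AngII libraries and 4389 to 4836 CPM in WT sham libraries. Dpt and Mfap5, matrix proteins of the adventitia, rose by 1.48 ± 0.247 and 0.95 ± 0.15. The count of 8 was 5 without WT sham replicate 2, 3 or 4. It was 4 with the mean log2 CPM of the adipocyte markers in each library as a covariate. Adipocyte markers summed to 1545 to 2972 CPM in KO AngII, 921 to 2849 CPM in WT AngII and 907 to 2506 CPM in WT sham. Of these 12 markers 2 were called higher (Cfd, Retn) and 1 lower (Plin4), a called share of 25% near the 30.8% over all genes. Called or not, 11 of the 12 were higher in KO AngII. Their median was 0.97 against -0.01 over all genes, and 0.44 in WT AngII. Without WT sham replicate 4, 8 were called higher, and without WT sham replicate 2 none was. The part of these cells in the matrix results was not tested.

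Markers of other cell types gave calls in both directions. The called share was 12.5% for brown adipocyte and 37.5% for Schwann cell markers, against 30.8% over all genes. Of 8 brown adipocyte markers Dio2 rose (1.14 ± 0.388, edgeR adjusted p = 0.044), and of 8 Schwann cell and nerve markers Mbp (0.83 ± 0.243) and S100b (0.93 ± 0.307) rose and Prx fell (-0.44 ± 0.121). None of 7 mesothelial and 5 tested skeletal muscle markers was called. Called or not, all 8 brown adipocyte, all 7 mesothelial and all 5 skeletal muscle markers were higher in KO AngII. Their medians were 0.41, 0.87 and 0.89, and 6 of the 8 Schwann cell markers were higher with a median of 0.75. All 5 tested red cell markers fell, with a summed level of 28.5 to 37.1 CPM in KO AngII, 19.3 to 49.3 CPM in WT AngII and 37.3 to 127.3 CPM in WT sham, and the globin genes among them have near-identical copies; 2 fell without WT sham replicate 3 and 3 without WT sham replicate 1. Single libraries decided the calls of Cfd (adjusted p = 0.0509 without WT sham replicate 2), Retn (up to 0.059, without KO AngII replicate 1 or WT sham replicate 2 or 3) and Mbp (up to 0.0609, without WT sham replicate 2 or 3) in edgeR. The same held for Dio2 (up to 0.119, without KO AngII replicate 3, 4 or 5, WT AngII replicate 3 or WT sham replicate 2, 3 or 4) and S100b (up to 0.0992, without KO AngII replicate 1, 2 or 5 or WT sham replicate 1, 2 or 3).

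Contractile markers moved the other way. Of 16 smooth muscle markers, 9 fell in KO AngII and none rose (median -0.60), and in WT AngII 4 fell (median -0.46); no marker was called between KO AngII and WT AngII. Myh11, the smooth muscle myosin heavy chain, had 3805, 4378, 5744, 4159.6 and 3417 CPM in the KO AngII libraries and 3045, 5176, 4484 and 5961 CPM in the WT AngII libraries, against 7806, 6944, 7536 and 6303 CPM in the WT sham libraries. The KO AngII and WT sham libraries did not overlap, with a fold change of -0.73 ± 0.184 (edgeR adjusted p = 0.00744). Lmod1, the actin nucleator leiomodin, fell by 0.82 (edgeR adjusted p = 0.000801), Mylk, the myosin light chain kinase, by 0.62 (edgeR adjusted p = 0.00828) and Pln, the calcium pump regulator phospholamban, by 1.10 (edgeR adjusted p = 0.00139). Acta2, smooth muscle actin, had 10570.4, 11592, 14379, 9009 and 7987 CPM in the KO AngII libraries, against 15163, 17512, 15449 and 13346 CPM in the WT sham libraries. Its groups overlapped and it was not called (-0.52 ± 0.206, edgeR adjusted p = 0.0679), nor were Tagln (-0.38, edgeR adjusted p = 0.128) and Cnn1 (-0.32, edgeR adjusted p = 0.305). Acta2 was called lower under 7 alternatives, among them DESeq2 (adjusted p = 0.0277), limma voom (0.00805) and edgeR fits without KO AngII replicate 3 (0.025), WT AngII replicate 1 (0.0239) or WT AngII replicate 4 (0.0422). Tagln was called lower in limma voom (adjusted p = 0.0258) and with scaling by library size alone (0.0415). With the adipocyte covariate, 2 of the 16 markers were called lower, and Myh11 and Mylk had adjusted p of 0.0503 and 0.0542 in edgeR.

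In a list of 26 actin cytoskeleton and focal adhesion genes, 10 fell and 4 rose; with the adipocyte covariate 4 fell. Zyx, a focal adhesion protein, fell by 0.65 (edgeR adjusted p = 0.000538). Tpm4, a tropomyosin of non-muscle filaments, Tln2 and Lasp1 rose by 1.10 ± 0.0922, 0.65 ± 0.0934 and 0.50 ± 0.069. Myh9, non-muscle myosin IIA, rose by 0.34 ± 0.12 (edgeR adjusted p = 0.0407), and this call ended in 9 of 13 fits with a library left out (all KO AngII replicates, WT AngII replicate 2, and WT sham replicates 2, 3 and 4), with adjusted p up to 0.146. Among 17 integrin subunits 4 rose and 2 fell, a called share of 35.3% near the 30.8% over all genes (median -0.08). Itga2 (2.08 ± 0.427), Itga6 (2.04 ± 0.491), Itga11 (1.62 ± 0.201) and Itga4 (1.09 ± 0.165) rose. Itga8 (-0.61 ± 0.151) and Itga10 (-0.35 ± 0.0832) fell. Itga11 pairs into a collagen receptor of fibroblasts, Itga4 into a receptor of leukocytes, and Itga8 is typical of smooth muscle. In fits without KO AngII replicate 3, WT AngII replicate 1 or WT AngII replicate 4, 4 to 6 subunits were called lower.

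Genes of vessel tone were called lower more often than higher. Of 40 receptors and enzymes of vascular tone, 11 fell and 6 rose, a called share of 42.5% against 30.8% over all genes. Called or not, 19 of the 40 were higher, and the list median was -0.07. Of 34 ion channel and calcium handling genes of smooth muscle, 18 fell and 3 rose (61.8% called, median -0.35). Gucy1a1, a subunit of the soluble guanylate cyclase that nitric oxide activates, had 132, 149.9, 189.5, 148 and 137 CPM in the KO AngII libraries and 134, 172, 157 and 197 CPM in the WT AngII libraries, against 418, 367, 353 and 408 CPM in the WT sham libraries. The highest infused library was far below the lowest sham library, at -1.35 ± 0.119 (edgeR adjusted p = 3.54e-06). Its partner subunit Gucy1b1 fell by 1.02 (edgeR adjusted p = 0.000118) and Pde5a, the phosphodiesterase that degrades cyclic GMP, by 0.84 (edgeR adjusted p = 0.000232).

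Adra1d, an α1-adrenergic receptor of large arteries, had 8.13, 14.4, 14.5, 14.6 and 10.3 CPM in KO AngII and 7.802, 14.8, 17.2 and 23.7 CPM in WT AngII, against 38.5, 45.9, 59.5 and 42.9 CPM in WT sham. All infused libraries were below all sham libraries, with a fold change of -1.91 ± 0.272 (edgeR adjusted p = 0.000279). Ednra, the endothelin A receptor, rose, with 27.6, 30.3, 20.96, 35.1 and 43.9 CPM in the KO AngII libraries, against 12.4, 11.9, 13.1 and 11.9 CPM in the WT sham libraries, and did not overlap (1.36 ± 0.259, edgeR adjusted p = 0.00188). Ace, the angiotensin-converting enzyme, rose by 0.71 ± 0.0974 (edgeR adjusted p = 9.43e-05). Agtr1a, the AngII type 1a receptor, averaged 4.34 ± 0.853 CPM in KO AngII and 3.05 ± 0.643 CPM in WT sham libraries and was not called (0.51 ± 0.211, edgeR adjusted p = 0.0804).

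Kcnj11, the pore of an ATP-sensitive potassium channel, had 0.994, 2.08, 2.85, 1.47 and 1.53 CPM in the KO AngII libraries, against 7.78, 5.42, 6.32 and 6.29 CPM in the WT sham libraries. Its libraries stood apart without overlap, at -1.84 ± 0.248 (edgeR adjusted p = 8.5e-05). Kcnip4, a potassium channel-interacting protein, fell by 1.57 (edgeR adjusted p = 6.04e-06). The channel genes that rose were the mechanosensitive channels Piezo2 (2.32 ± 0.281) and Piezo1 (0.83 ± 0.0869) and the potassium channel Kcna5 (1.29 ± 0.293); with the adipocyte covariate Kcna5 was not called (edgeR adjusted p = 0.0618). Of 12 regulators of G protein signalling, which shorten signals of such receptors, Rgs14 (1.19), Rgs18 (0.92) and Rgs10 (0.65) rose and Rgs7bp (-0.91), Rgs17 (-0.82) and Rgs5 (-0.53) fell. That is a called share of 50% against 30.8% over all genes, with a list median of 0.15.

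Markers of macrophages and monocytes rose, 10 of 12 with none lower (median 0.84), in both AngII groups. Ccr2, the receptor that draws monocytes out of the blood, had 46.95, 33.3, 32.1, 39.8 and 43.7 CPM in the KO AngII libraries and 49.8, 29.5, 24.2 and 13.2 CPM in the WT AngII libraries, against 5.53, 1.805, 2.35 and 4.43 CPM in the WT sham libraries. No infused library overlapped with sham, and WT AngII replicate 4 was the lowest of them; the fold change in KO AngII was 3.45 ± 0.417 (edgeR adjusted p = 0.000114). Adgre1, which encodes F4/80, Cd68 and Csf1r, the receptor for macrophage growth factor, rose by 1.04 ± 0.118, 0.93 ± 0.115 and 0.58 ± 0.0805. The summed macrophage markers were 946 to 1098 CPM in KO AngII, 764 to 975 CPM in WT AngII and 545 to 699 CPM in WT sham libraries.

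Of 27 chemokines and cytokines 15 rose in KO AngII and none fell, against 10 higher and 1 lower in WT AngII, and no member was called between KO AngII and WT AngII. Ccl9, Cxcl16 and Cx3cl1, ligands for myeloid and other leukocytes, rose by 1.17 ± 0.178, 1.10 ± 0.136 and 0.76 ± 0.0785, and Ccl5 by 2.76 ± 0.577. The count of 15 was 8 without WT sham replicate 2 or 3 and 5 with the adipocyte covariate. Il6 had 1.04, 0.189, 0.129, 5.51 and 5.07 CPM in KO AngII and 0.0339, 0.257, 0.398 and 0.246 CPM in WT AngII, against 0.32, 0.0368, 0.0722 and 0.0357 CPM in WT sham. KO AngII replicates 1, 4 and 5 were above all sham libraries and replicates 2 and 3 among them, and the call (4.22 ± 1.2, edgeR adjusted p = 0.0183) ended without WT sham replicate 2, 3 or 4 (adjusted p up to 0.0568) and in limma voom (0.16).

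Complement genes rose in 15 of 19 cases with 1 lower (median 0.67). C3ar1, the receptor for the fragment C3a, had 24.5, 22.2, 23.6, 26.9 and 27.4 CPM in the KO AngII libraries, against 13.5, 9.65, 9.42 and 11.3 CPM in the WT sham libraries. The groups did not overlap, at 1.18 ± 0.112 (edgeR adjusted p = 5.87e-06). C1s1 and C1qb, which encode parts of the classical pathway, rose by 0.99 ± 0.147 and 0.80 ± 0.123. Clu fell by 0.39 (edgeR adjusted p = 0.0422), a call that ended in 7 fits with a library left out, without KO AngII replicate 1, 2, 4 or 5 or WT sham replicate 1, 2 or 3 (adjusted p up to 0.14). Of 10 genes of MHC class II presentation 8 rose and none fell (median 1.34), among them Ctss, the cathepsin that trims the invariant chain (1.35 ± 0.178), H2-Ob (2.05 ± 0.346), H2-Oa (2.79 ± 0.629) and H2-DMb1 (0.86 ± 0.189). The count was 4 without KO AngII replicate 2 and 5 without KO AngII replicate 1 or 5 or WT sham replicate 1, 2 or 3.

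Of 22 interferon-stimulated genes, 6 rose and none fell (median 0.40), a called share of 27.3% that is near the 30.8% over all genes. Oas1a, which senses double-stranded RNA, rose by 1.27 ± 0.28 (edgeR adjusted p = 0.00324), and Rigi by 0.38 ± 0.103 (edgeR adjusted p = 0.011). Oas2 (0.71 ± 0.21, edgeR adjusted p = 0.0191) lost its call without KO AngII replicate 5 or WT sham replicate 3 or 4, and Usp18 (0.79 ± 0.263, edgeR adjusted p = 0.0338) without KO AngII replicate 1, 4 or 5 or WT sham replicate 1, 2 or 3, with adjusted p up to 0.0614 and 0.101. The count of 6 was 2 without KO AngII replicate 5, 3 without KO AngII replicate 1 or WT sham replicate 2, 3 or 4, and 11 without WT AngII replicate 1. Of 11 tested lymphocyte markers 2 rose (18.2%, below the 30.8% over all genes). Called or not, all 11 were higher in KO AngII, with a median of 0.89 against -0.01 over all genes, and 0.64 in WT AngII. Levels were low, with the 12 listed markers summing to 4.4 to 9.81 CPM in KO AngII and 1.99 to 6.97 CPM in WT sham. Trac, a T cell receptor constant region, rose by 3.40 ± 0.662 (edgeR adjusted p = 0.00139), and Cd79b by 1.23 ± 0.399 (edgeR adjusted p = 0.029). The call of Cd79b, a gene at about 1 CPM, ended when KO AngII replicate 1, 4 or 5 or WT sham replicate 1, 2 or 3 was left out (adjusted p up to 0.0774).

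Endothelial markers that were called changed by small steps in both directions. Of 12 endothelial markers Eng (0.38 ± 0.0815), Cdh5 (0.35 ± 0.106) and Erg (0.29 ± 0.0919) rose and Egfl7 (-0.56 ± 0.146) and Esam (-0.45 ± 0.11) fell. That is a called share of 41.7% against 30.8% over all genes, with a list median of 0.05. Over all 12 markers fold changes ran from -0.60 to 1.60, and the marker at 1.60 was not called. The calls of Cdh5 and Erg ended with single libraries left out, Cdh5 without KO AngII replicate 2 or WT sham replicate 2 (adjusted p up to 0.0796) and Erg without KO AngII replicate 3, 4 or 5 or WT sham replicate 1, 2 or 4 (up to 0.0889). Among 11 adhesion molecules Vcam1, which holds monocytes through Itga4, had 182, 164, 189, 176 and 132 CPM in the KO AngII libraries, against 82.05, 85.7, 89.7 and 77.3 CPM in the WT sham libraries. All KO AngII libraries were above sham (1.01 ± 0.136, edgeR adjusted p = 8.79e-05), and Jam2 rose by 0.40 ± 0.0872. Jam3, F11r, Icam2 and Mcam fell by 0.47, 0.27, 0.72 and 0.50 on the log2 scale. Icam2 lost its call without WT sham replicate 2 (adjusted p = 0.0638) and Mcam without KO AngII replicate 1, 4 or 5 or WT sham replicate 1, 2 or 3 (up to 0.0941).

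Of 7 lymphatic endothelial markers 5 rose in KO AngII and none fell (median 1.83), with a summed level of 100.1 to 134.8 CPM in KO AngII, 99.7 to 127.6 CPM in WT AngII and 56.6 to 92.4 CPM in WT sham. Flt4, the receptor for lymphatic growth factors, rose by 1.16 ± 0.236 (edgeR adjusted p = 0.00216), Pdpn by 0.99 ± 0.2, Mmrn1 by 2.05 ± 0.547 and Reln by 1.83 ± 0.502. Ccl21a rose by 2.63 ± 0.591, but mouse Ccl21 genes have near-identical copies, so its reads may be split among them. The other members, Prox1 and Lyve1, were not called. With the adipocyte covariate, 3 of the 7 were called.

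Growth factor genes rose in 15 of 27 cases with 1 lower (median 0.54). Igf1, insulin-like growth factor 1, had 282, 216, 182, 296 and 385 CPM in the KO AngII libraries, against 67.1, 62.9, 60.1 and 51.1 CPM in the WT sham libraries, a fold change of 2.17 ± 0.291 (edgeR adjusted p = 0.000178). Every KO AngII library was well above the highest sham library. Pdgfc, a platelet-derived growth factor, and Egfr, the receptor for epidermal growth factor, rose by 0.89 ± 0.0897 and 0.87 ± 0.146. Ctf1 fell by 0.30 (edgeR adjusted p = 0.0432) and lost the call without KO AngII replicate 1, 3 or 5 or WT sham replicate 2, 3 or 4 (adjusted p up to 0.121).

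TGF-beta, activin and BMP genes were close to all genes as a list, with 6 of 28 higher and 4 lower (median 0.18). Fst, which binds activin, had 60.4, 59.9, 43.2, 64.1 and 73.7 CPM in the KO AngII libraries, against 11.2, 8.91, 12.8 and 11.1 CPM in the WT sham libraries. It did not overlap with sham (2.45 ± 0.231, edgeR adjusted p = 1.34e-05). The ligand genes Tgfb3 and Tgfb1 and the secreted Fstl1 rose by 0.77 ± 0.095, 0.41 ± 0.0896 and 0.66 ± 0.112. Bmpr1a, Id2, Smad6 and Tgfbr3 fell by 0.41, 0.56, 0.86 and 0.40 on the log2 scale. Of these, Smad6 lost its call without KO AngII replicate 1 or 5 or WT sham replicate 2 or 3 (adjusted p up to 0.0792), and Tgfbr3 without KO AngII replicate 1, 2 or 4 or WT sham replicate 1 or 4 (up to 0.0729); without KO AngII replicate 1, 2 members were called lower.

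Of 23 Wnt genes 11 rose and 3 fell (median 0.31). Sfrp4 and Frzb, secreted Wnt binders, and Nkd2, an intracellular inhibitor, rose by 1.26 ± 0.198, 1.02 ± 0.149 and 1.41 ± 0.224. The receptors Fzd2 and Fzd7 and the inhibitor Nkd1 fell by 0.70, 0.51 and 0.79 on the log2 scale, and Fzd7 lost its call without KO AngII replicate 1 or 5 or WT sham replicate 3 (adjusted p up to 0.0745). Of 20 guidance genes 11 rose and 1 fell. Slit2, a secreted repellent, had 33.3, 31.5, 25.6, 39.5 and 42.9 CPM in the KO AngII libraries, against 14.4, 11.9, 12.1 and 11.5 CPM in the WT sham libraries, whereas Unc5c, a netrin receptor, had 23.99, 26.8, 38.5, 34.5 and 26.1 CPM in the KO AngII libraries, against 81.8, 76.5, 76.3 and 81.2 CPM in the WT sham libraries. Neither overlapped, at 1.47 ± 0.223 (edgeR adjusted p = 0.000356) and -1.39 ± 0.118 (edgeR adjusted p = 2.96e-06). Nrp1, a co-receptor for semaphorins and VEGF, and Epha3 rose by 0.80 ± 0.111 and 0.79 ± 0.125.

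**Figure D4:**
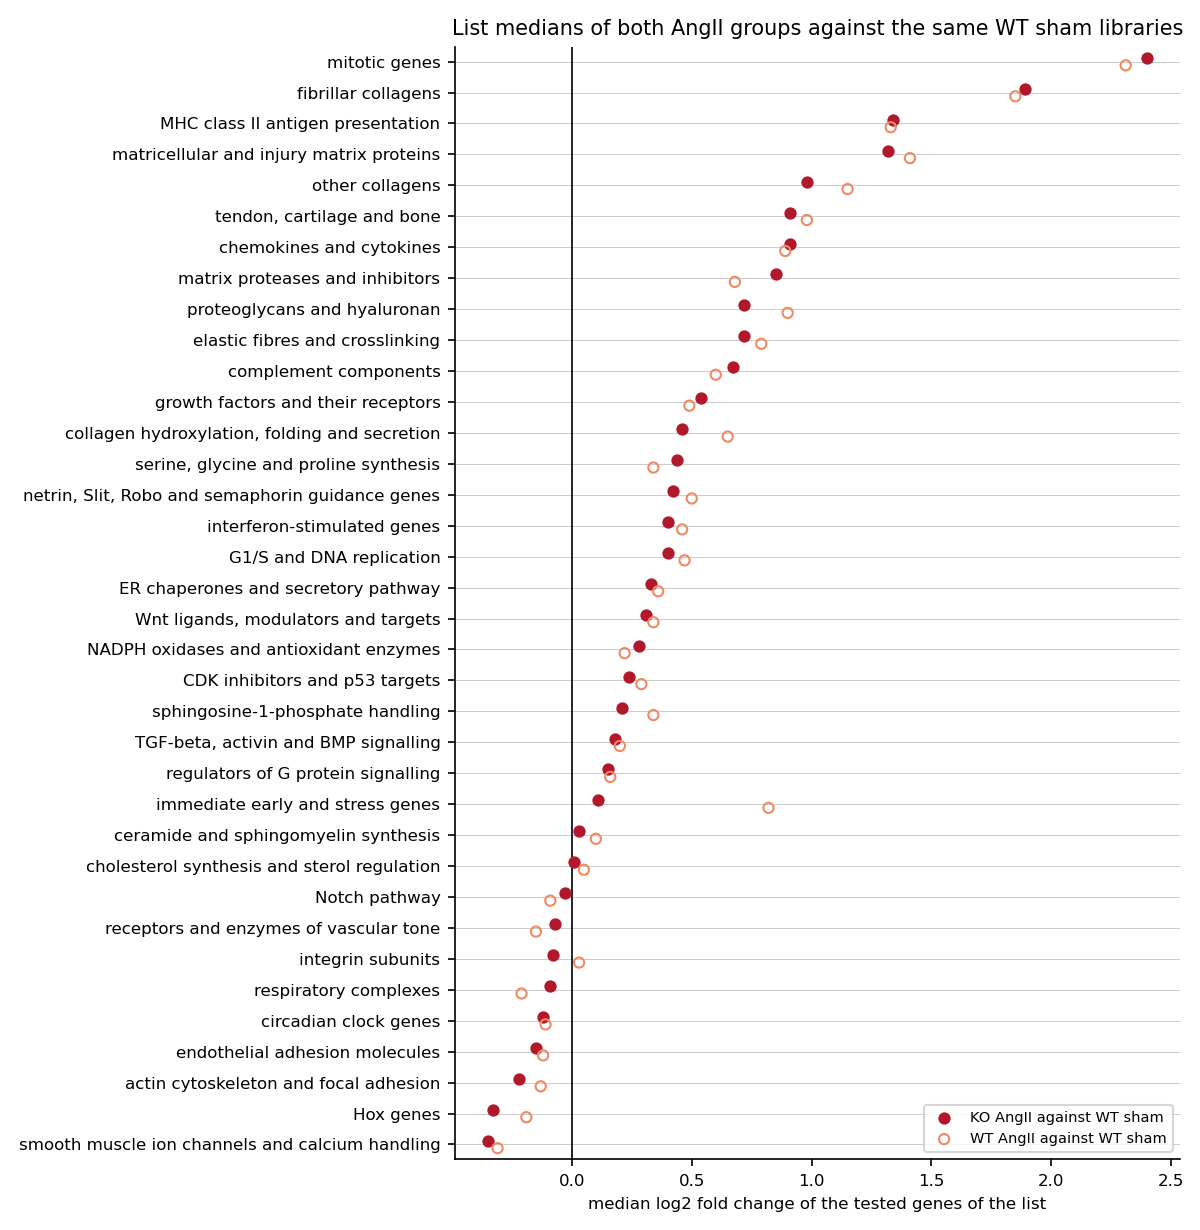
Median log2 fold change (x axis) of the tested genes of each list (y axis) in KO AngII (filled) and WT AngII (open) libraries, each against the same 4 WT sham libraries. Most pairs of points lie close together, as at 2.40 and 2.31 for mitotic genes, and among these 36 gene groups, which leave out the lists of cell type markers, the widest gap is that of the immediate early and stress genes, at 0.11 in KO AngII and 0.82 in WT AngII.

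The pathway of the deleted kinase was changed beyond Sphk1. Of 13 tested genes for sphingosine-1-phosphate (S1P) synthesis, breakdown, transport and receptors, 7 rose in KO AngII and 2 fell (Sphk1 and Sphk2), against 7 higher and 1 lower in WT AngII. S1pr2, an S1P receptor of smooth muscle, had 36.7, 39.1, 31.2, 40.3 and 39.1 CPM in the KO AngII libraries and 39.8, 30.3, 37.9 and 27.1 CPM in the WT AngII libraries, against 21.1, 18.5, 20.3 and 22.2 CPM in the WT sham libraries. S1pr3, another smooth muscle receptor, had 6.01, 3.97, 3.203, 6.39 and 7.33 CPM in the KO AngII libraries, against 2.88, 2.1, 1.66 and 2.07 CPM in the WT sham libraries. Neither overlapped between KO AngII and sham, with fold changes of 0.86 ± 0.113 (edgeR adjusted p = 7.19e-05) and 1.29 ± 0.248 (edgeR adjusted p = 0.00121). S1pr1, the main endothelial receptor, had 44.2, 57.3, 47.1, 43.98 and 45.8 CPM in KO AngII and 43.6, 45.3, 25.6 and 38.6 CPM in WT AngII, against 32.1, 22.8, 35.7 and 30.1 CPM in WT sham. It was called in KO AngII (0.66 ± 0.161, edgeR adjusted p = 0.00695) and not in WT AngII (0.34 ± 0.168, edgeR adjusted p = 0.156), and the direct difference between KO and WT AngII was 0.32 (95% interval -0.02 to 0.66), not called (edgeR adjusted p = 0.981).

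Spns2, the S1P exporter of endothelium, rose by 1.27 ± 0.171 (edgeR adjusted p = 8.59e-05). Sgpl1, the lyase that destroys S1P, had 67.3, 70.4, 57.7, 69.9 and 77.9 CPM in the KO AngII libraries, against 44.2, 39.9, 39.8 and 47.8 CPM in the WT sham libraries. The groups did not overlap, at 0.68 ± 0.12 (edgeR adjusted p = 0.000719). The phosphatases Plpp1 and Sgpp1, which return S1P to sphingosine, rose by 0.46 ± 0.108 (edgeR adjusted p = 0.00486) and 0.21 ± 0.0604 (edgeR adjusted p = 0.0144). Sphk2, the other sphingosine kinase, had 33.98, 31.8, 35.9, 30.6 and 28.2 CPM in the KO AngII libraries, against 36.1, 39.3, 43.2 and 38.9 CPM in the WT sham libraries, and fell by 0.29 (edgeR adjusted p = 0.0178). Its libraries did not overlap, although the gap was small. The calls of Sgpp1 and Sphk2 ended without WT sham replicate 2 (adjusted p = 0.0579) and without WT sham replicate 3 (adjusted p = 0.0677).

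Of 21 genes for ceramide and sphingomyelin, the lipids that supply sphingosine, 7 rose and 1 fell, and 4 rose when libraries were scaled by size alone. The called share was 38.1% against 30.8% over all genes, with a median of 0.03. Cers6, a ceramide synthase for palmitoyl ceramide, had 21.5, 18.8, 18.5, 18.7 and 20.4 CPM in KO AngII and 17.8, 15.6, 11.6 and 15.03 CPM in WT AngII, against 9.7, 7.92, 7.94 and 6.29 CPM in WT sham. All KO AngII libraries were above all others, at 1.30 ± 0.131 against sham (edgeR adjusted p = 9.28e-06). The difference from WT AngII was 0.38 (95% interval 0.11 to 0.65) and not called (edgeR adjusted p = 0.981). Sptlc2, a subunit of the enzyme that starts sphingolipid synthesis, and Asah2, the neutral ceramidase, rose by 0.30 ± 0.0568 and 0.32 ± 0.0796. Degs2, a desaturase and hydroxylase of ceramide, fell by 2.01 (edgeR adjusted p = 0.000976), with 0.475, 0.719, 0.259, 0.489 and 0.23 CPM in the KO AngII libraries, against 1.05, 1.66, 2.17 and 2.18 CPM in the WT sham libraries.

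Oxidant enzymes were divided. Of 23 genes of NADPH oxidases and antioxidant defence, 10 rose and 2 fell (median 0.28). Ncf1, the organiser subunit of the phagocyte oxidase, rose by 1.24 ± 0.138 (edgeR adjusted p = 2.07e-05), whereas Noxo1, the organiser of NOX1, had 6.22, 6.62, 8.12, 7.56 and 6.601 CPM in the KO AngII libraries, against 17.6, 20, 20.9 and 20.6 CPM in the WT sham libraries. The Noxo1 groups were well apart, at -1.49 ± 0.107 (edgeR adjusted p = 1.63e-06). Nox4, the main oxidase catalytic gene of smooth muscle, averaged 501 ± 72.98 CPM in KO AngII and 587 ± 24.8 CPM in WT sham libraries and was not called (-0.23 ± 0.122, edgeR adjusted p = 0.172). Hmox1, heme oxygenase 1, and Gpx8, a peroxidase of the endoplasmic reticulum, rose by 1.16 ± 0.115 and 0.88 ± 0.0888. Nqo1 fell by 0.47 (edgeR adjusted p = 0.0411), a call that ended without KO AngII replicate 1, 2, 4 or 5 or WT sham replicate 2, 3 or 4 (adjusted p up to 0.0987).

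Respiratory and cholesterol genes gave few calls, against 30.8% over all genes. Of 24 subunits of the respiratory complexes 1 fell, Ndufa2 (-0.33 ± 0.114, edgeR adjusted p = 0.0413), and its call ended without KO AngII replicate 2, 3, 4 or 5 or WT sham replicate 2 or 4 (adjusted p up to 0.132). Of 19 cholesterol synthesis genes 2 rose, among them Cyp51, which removes a methyl group from lanosterol, by 0.55 ± 0.17 (edgeR adjusted p = 0.0244). Cyp51 lost its call without KO AngII replicate 1 or 5 or WT sham replicate 1 or 3 (adjusted p up to 0.078).

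Decreases outnumbered increases among Hox and clock genes. Of 22 Hox genes, which keep the position of cells along the body axis, 9 fell and 1 rose (median -0.33). Hoxa3, which patterns the pharyngeal arches, had 38.99, 32.7, 33.2, 38.6 and 34.2 CPM in the KO AngII libraries, against 52.3, 59.6, 52.5 and 46.1 CPM in the WT sham libraries. The KO AngII libraries were all below sham, at -0.57 ± 0.102 (edgeR adjusted p = 0.000797). Hoxb2, Hoxb3 and Hoxb4 fell by 0.52, 0.44 and 0.42 on the log2 scale. Hoxc8 rose by 0.90 ± 0.307 (edgeR adjusted p = 0.0405), with overlapping groups, and lost the call without KO AngII replicate 1, 2 or 4, WT AngII replicate 3 or WT sham replicate 2, 3 or 4 (adjusted p up to 0.121). Of 18 clock genes 6 fell and 1 rose (38.9% called, against 30.8% over all genes). Without WT sham replicate 3, 3 fell. Hlf, an output factor of the clock, had 6.36, 8.59, 13.4, 7.204 and 9.75 CPM in the KO AngII libraries, against 19.3, 18.6, 21.7 and 20.5 CPM in the WT sham libraries, a change of -1.14 ± 0.192 (edgeR adjusted p = 0.000544). Cry2 and Nr1d1, both repressors of the clock, fell by 0.61 (edgeR adjusted p = 0.000502) and 0.48 (edgeR adjusted p = 0.00914), and Bhlhe40 rose by 1.17 ± 0.229 (edgeR adjusted p = 0.00215). The labels do not give the time of day at tissue collection. Of 14 Notch genes 2 fell (14.3%) and none rose, near the 14.2% called lower over all genes, with a median of -0.03. The targets Heyl and Hey2 fell by 0.81 (edgeR adjusted p = 0.0014) and 0.68 (edgeR adjusted p = 0.000601).

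Compared directly, KO AngII and WT AngII gave few calls. Sphk1 was the 1 gene called of 16863 (0.00593%), 608 genes (3.61%) had an unadjusted p below 0.05, and DESeq2 called 6. The 95% interval of the difference lay within 2-fold in either direction for 13999 genes (83%) and within 1.5-fold for 11060 (65.6%), so larger differences remain possible for the others. Among the 3705 genes called in the same direction in both AngII groups, the interval lay within 2-fold for 3348 (90.4%). For Col1a1 the difference was 0.12 (95% interval -0.32 to 0.56), for Cdk1 0.18 (95% interval -0.22 to 0.57), for Gucy1a1 -0.13 (95% interval -0.38 to 0.13) and for Ccr2 0.42 (95% interval -0.35 to 1.20). The last of these intervals extends past 2-fold.

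**Figure D5:**
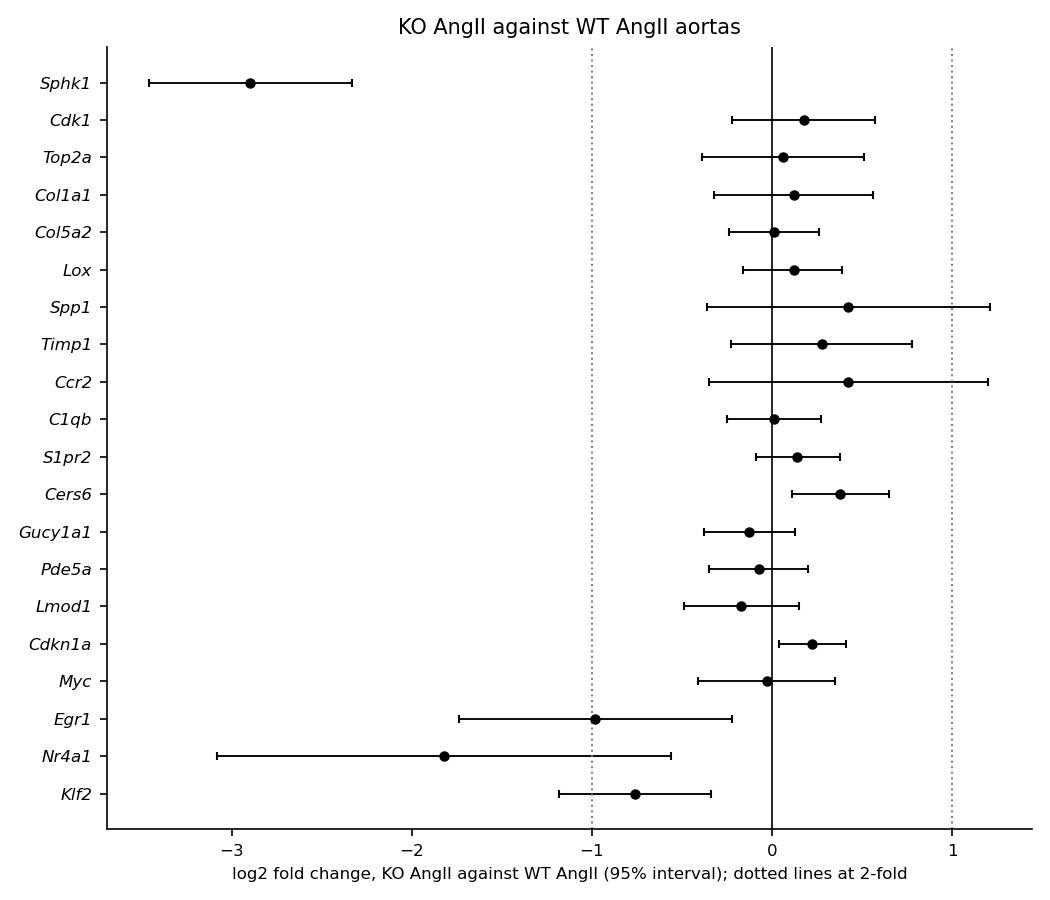
Log2 fold change of KO AngII over WT AngII libraries (x axis) for 20 genes (y axis); points are edgeR estimates, bars are 95% intervals and dotted lines mark 2-fold. Sphk1 lies at -2.90 and away from 0, most other genes have intervals that cover 0 within 2-fold, and Egr1, Nr4a1 and Klf2 lie to the left without a call.

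Among the 36 gene groups, the medians of KO AngII and WT AngII lay furthest apart for immediate early genes. Of 24 such genes 8 rose in KO AngII with a median of 0.11, and 10 rose in WT AngII with a median of 0.82. The called share in KO AngII was 33.3%, near the 30.8% over all genes. Myc, Egr2, Maff and Klf4 rose in KO AngII by 1.43 ± 0.191, 1.16 ± 0.241, 0.92 ± 0.197 and 0.53 ± 0.112. Fosb, a subunit of AP-1, had 8.78, 6.74, 10.9, 13.9 and 7.98 CPM in KO AngII and 7.33, 12.98, 8.93 and 104 CPM in WT AngII, against 36.8, 40.04, 21.98 and 31.1 CPM in WT sham. Its KO AngII libraries were all below sham, at -1.75 ± 0.715, without a call (edgeR adjusted p = 0.0871), and it was called lower without WT AngII replicate 4 (edgeR adjusted p = 0.00018), with only KO AngII and WT sham in the fit (0.000451) and in limma voom (0.00901). Egr1 had 135, 103, 116, 187 and 79.2 CPM in KO AngII and 133, 253, 152 and 443 CPM in WT AngII, against 166, 167, 111 and 122 CPM in WT sham. Nr4a1, a nuclear receptor induced within minutes of a stimulus, had 42.97, 32.9, 32.8, 84.2 and 26.6 CPM in KO AngII and 94.2, 78.1, 49.2 and 398 CPM in WT AngII, against 49.1, 68.8, 46.6 and 50.5 CPM in WT sham. Klf2, a flow-responsive factor of endothelium, had 63.8, 73, 52.6, 60.01 and 43.7 CPM in KO AngII and 102, 89.6, 67 and 138 CPM in WT AngII, against 35.4, 52.3, 47.1 and 43.6 CPM in WT sham. WT AngII replicate 4 was the highest library for Fosb, Egr1, Nr4a1 and Klf2, and the KO AngII and WT AngII groups overlapped in part. Direct differences were -0.98 (95% interval -1.74 to -0.22) for Egr1, -1.82 (95% interval -3.08 to -0.56) for Nr4a1 and -0.76 (95% interval -1.18 to -0.34) for Klf2, each with an edgeR adjusted p = 0.981. The same library stood apart on the 2nd principal component. Without it the list median in WT AngII was 0.41, with 8 genes higher, and the differences of KO AngII from WT AngII were -0.53 for Egr1, -0.75 for Nr4a1 and -0.56 for Klf2, each with an edgeR adjusted p = 0.91.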

How the data were processed

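The samples were poly(A) RNA from mouse aorta, with 13 aortic libraries in 3 groups (KO AngII 5, WT AngII 4, WT sham 4), each a separate mouse per the labels. RNA was prepared with a directional Illumina kit and sequenced as 2 × 150 bp pairs, per the labels' protocols. The deposited values are raw read counts per Ensembl gene and library; cutadapt, HISAT2, HTSeq and GRCm39 are named, with no versions, in the submitters' processing notes, and no source used here gives the strand setting of the counting. Of 55416 gene IDs, 52083 had a symbol in the table of gene names. The 5 HTSeq summary lines were dropped; reads without a gene were 8.279 to 11.12% and ambiguous reads 1.198 to 1.279% of the deposited totals. Replicates were compared by a chi-square test, and all 22 pairs within groups differed beyond sampling noise (chi-square per degree of freedom 8.41 to 156.7).

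Counts were fitted with edgeR 4.0.16 in R 4.3.3 (TMM factors, filterByExpr, robust quasi-likelihood F test) over 16863 genes, in 1 fit of all 13 libraries so that they share the estimate of spread, with Benjamini-Hochberg adjustment over all genes. SE is the size of the log2 fold change divided by the square root of F. Counts were simulated for KO AngII against WT sham, with 200 of 16605 genes changed, all at a mean log2 CPM of at least 1. On these the fit recovered 52.2% of 1.5-fold, 95.5% of 2-fold and 98.5% of 4-fold changes and called 12 unchanged genes. DESeq2 1.42.0, limma 3.58.1, other scalings and filters, an adipocyte covariate and leaving out each library were alternatives.

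Named genes are Sphk1, the 10 largest changes in each direction without overlap (mean log2 CPM at least 1, predicted genes left out), and up to 4 called members of each list by adjusted p. The 4 other classes of the rule, for genes called between KO AngII and WT AngII, were empty. A few genes that the rule or the lists hold are not reported here by name. Further genes were chosen after their values were seen: single members against their list's direction, uncalled members of interest (such as Anln, Col11a2, Acta2, Agtr1a and Nox4), Mki67, Kif11, Col2a1, Col3a1, Eln, Chad, Tnmd, Mmp13, Il6, Ednra, Piezo2, Kcna5, Itga6, Rgs5, Rgs10, Mmrn1, the remaining S1P genes, the immediate early genes and those called under other settings. The members and lists were chosen with earlier results of these data known, and list counts are descriptions without a test. RefSeq promoter windows were matched by symbol. Intervals on fold changes rest on the SE of the edgeR fit, which includes the spread between libraries of a group.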

Additional observations from a re-analysis of the deposited data

Results flagged for a closer look

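Within each group the 247 named genes were searched for a single library whose distance to its nearest neighbour made up most of the group's range (Dixon's test at 95%). Of 741 combinations of gene and group, 36 met it (4.86%). Chance gives about 1 in 20 for independent values, but some of these genes were chosen after their values were seen. That share is therefore no reference for this set. The 36 cases were not spread evenly, since 14 concerned KO AngII replicate 5 and 6 concerned WT AngII replicate 4.

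In KO AngII replicate 5 the library stood above the other 4 KO AngII libraries for genes of cartilage, tendon and matrix, with 153.2 CPM for Col11a1 (others 14.9 to 32.4), 302.5 CPM for Thbs4 (others 30.8 to 56.5), 77.6 CPM for Tnmd (others 13.6 to 19.3), 26.5 CPM for Chad (others 1.99 to 4.33), 42.8 CPM for Tnn (others 1.17 to 7.37) and 20.4 CPM for Fbn2 (others 1.29 to 4.69). The same library had 23.7 CPM for Lgr5, 9.21 CPM for Lrrc15, 13.7 CPM for Col11a2 and 1798 CPM for Col6a3. It was also highest for the mitotic genes Cdk1 (7.14 CPM, others 3.91 to 4.67) and Cenpe (5.95 CPM, others 3.82 to 4.24), for S100b (14.2 CPM) and for Pln (4.22 CPM). Without this library Col11a2 stayed uncalled at 0.28 (edgeR adjusted p = 0.138), and S100b was no longer called at 0.70 (0.0817).

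WT AngII replicate 4 was highest in its group for the immediate early genes Fos (327.6 CPM, others 18.5 to 46.9), Fosb (103.5 CPM, others 7.33 to 12.98) and Nr4a1 (398.4 CPM, others 49.2 to 94.2). It was also highest for Col15a1 (2595 CPM, others 1482 to 1663) and Spns2 (14.5 CPM, others 9.40 to 9.56), and lowest for Rgs10 (8.69 CPM, others 14.2 to 15.2). This library held 42186 CPM of the summed smooth muscle markers, the highest of the infused libraries, and 921 CPM of the adipocyte markers, the lowest of them.

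The other KO AngII cases were replicate 1 for Col2a1 (15.4 CPM, others 4.11 to 6.57) and H2-DMb1 (20.5 CPM), replicate 2 for S1pr1 (57.3 CPM), replicate 3 for Bex4 (2.30 CPM) and C1s1 (251.4 CPM, the lowest), and replicate 4 for Nr4a1 (84.2 CPM) and Myh9 (788 CPM). WT AngII replicate 1 was highest for C3ar1 (23.7 CPM). Among WT sham libraries, replicate 1 was highest for Thbs4 (2.42 CPM, others 0.0737 to 0.25), Il6 (0.32 CPM), Ncf1 (8.77 CPM), Pdpn (17.5 CPM) and Rgs5 (1237 CPM). WT sham replicate 2 was lowest for Itga4 (5.01 CPM) and Jam2 (57.5 CPM), and replicate 4 was lowest for Bmp1 (181.4 CPM).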

How the results depend on the processing

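Results were recomputed under 22 alternatives: each of the 13 libraries left out, an adipocyte covariate, a replicate block, DESeq2, limma voom with quality weights, fits of only the 2 groups compared, scaling by RLE factors or by library size alone, and a stricter or no filter on low counts. No named gene that was called changed sign under any of them. Of 231 called genes that are named, 187 kept the call wherever they were tested, 29 lost it in at least 1 fit with a library left out, and the rest under another setting. Of 16 named genes that were not called, 10 were called under at least 1 alternative, among them Acta2 under 7, Fosb and Col11a2 under 3, and Nox4, Tagln and Adipoq under 2. Nox4 had an adjusted p of 0.0406 with library size alone and 0.0496 with limma voom, Agtr1a 0.0452 in the fit of only the 2 groups, Anln 0.0209 with the adipocyte covariate, Klf2 0.0316 with limma voom, and Col11a2 0.0407 with DESeq2 and up to 0.0468 without KO AngII replicate 1 or 3.

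The number of lower genes in KO AngII (2401) became 4075 with library size alone and 1525 with the adipocyte covariate, in WT AngII (1826) 3729 with library size alone, and the number lower in both (1522) 3138 with library size alone and 2316 with limma voom. Genes called between KO AngII and WT AngII numbered 6 with DESeq2 and 3 with the replicate block, against 1. With a library left out, KO AngII had 2252 to 3057 higher and 1907 to 2849 lower genes, WT AngII 1943 to 2634 and 1288 to 2062, and both together 1724 to 2346 and 1090 to 1793. Distinct list members ranged from 280 to 342 higher and 71 to 115 lower, and KO AngII against WT AngII calls from 1 to 2 (Chad being the second, without KO AngII replicate 5). The Sphk1 fold change ranged from -1.04 to -0.73 against WT sham and from -3.07 to -2.75 against WT AngII.

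Replicate numbers are shared between groups in the labels, but same-numbered KO AngII and WT sham libraries did not deviate together (correlations 0.029 to 0.054), so the pairing was not used. With the replicate block the Sphk1 fold change against WT sham was -0.92 (edgeR adjusted p = 0.0598), and Kank4 (0.64) and Chad (-1.75) were called between KO AngII and WT AngII. The causes of these shifts were not tested. In the simulated data about 1 in 2 changes of 1.5-fold were missed, so small changes may be under-counted. That simulation changed 200 of 16605 genes, all with mean log2 CPM of at least 1, whereas 30.8% of genes were called in the data. The share missed in the data can therefore differ and was not measured.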

Other observations

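Some genes outside the lists, or called between KO AngII and WT AngII by DESeq2 only, are given here as values; they were chosen after their values were seen. Gpr176, an orphan G protein-coupled receptor, had 18.3, 11.7, 12, 14.2 and 12.1 CPM in the KO AngII libraries and 10.9, 11.1, 8.57 and 8.48 CPM in the WT AngII libraries, against 0.845, 1.03, 0.83 and 0.643 CPM in the WT sham libraries. All infused libraries were far above sham, with a fold change in KO AngII of 4.02 ± 0.191 (edgeR adjusted p = 3.21e-08). Il1rn, the interleukin-1 receptor antagonist, had 0.692, 1.82, 1.33, 2.31 and 2.03 CPM in KO AngII and 0.712, 0.478, 0.615 and 0.317 CPM in WT AngII, against 0.117, 0.221, 0.18 and 0.179 CPM in WT sham. It rose in KO AngII by 3.22 ± 0.406 (edgeR adjusted p = 5.19e-05), and the difference from WT AngII was 1.62 (95% interval 0.87 to 2.37) without a call (edgeR adjusted p = 0.981). Nfe2l3, a transcription factor of the CNC family, rose by 2.26 ± 0.289 (edgeR adjusted p = 5.7e-05).

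Adamts8, a secreted metalloprotease, had 146, 114, 146, 81.2 and 71.1 CPM in KO AngII and 56.95, 70.2, 56.5 and 51.4 CPM in WT AngII, against 78.5, 61.4, 53.4 and 48.8 CPM in WT sham. Its KO AngII libraries were above all WT AngII libraries, by 0.93 (95% interval 0.45 to 1.41) (edgeR adjusted p = 0.981; DESeq2 adjusted p = 0.0349). DESeq2 also called Hs6st2 (0.87, adjusted p = 0.00877), Olfr224 (1.55, 0.000792) and Dglucy (0.43, 0.0305) higher in KO AngII than in WT AngII.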
